A study of Octopus bimaculoides with 6 samples.

Results

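Among 38556 predicted coding transcripts of the octopus Octopus bimaculoides, 214 were high in a whole hatchling and low in 5 libraries of adult arm. These hatchling-high transcripts were chosen by the deposited expression values themselves, so their levels in these 6 libraries are a description and were not tested. Each had at least 10 TPM in the hatchling, TPM being a normalised read count scaled by transcript length and library total. Each also had a TPM + 1 in the hatchling of at least 4 times that in every arm library, and its highest arm TPM + 1 was less than 3 times the lowest. With the added 1, a transcript under 1 TPM in every arm library cannot fail this evenness limit. That was so for the 95 at 0 in all 5 arm libraries and for 79 detected there under 1 TPM. The number depends on the scaling: it was 322 with TMM scaling (a scaling by the trimmed mean of ratios between libraries), 361 with non-coding targets left out of the TPM and 338 without the 10 most abundant targets of each library. The 214 made up 0.555% of all coding transcripts and 4.26% of the 5021 coding transcripts with at least 10 TPM in the hatchling. With the same hatchling minimum, the 4-fold limit alone was passed by 1.10% of coding transcripts against the distal, 0.773% against the medial and 0.820% against the proximal section. It was passed by 1.56% against the male tip and 1.68% against the female tip, and by 0.646% against every arm library.

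The hatchling was 1 whole body at 30 days post fertilization (dpf). The arm libraries came from the first left arm of adult animals caught in the wild and killed with an overdose of ethanol. For the male OB-5, sections were taken near the tip (distal, at 1.5 cm), further in (medial, at 3.5 cm) and nearer the body (proximal, at 5.5 cm). The other arm libraries were the arm tips of the male OB-2 and of the female OB-9, both also listed at 1.5 cm. Each condition was 1 library, so no difference here has a replicate check, and life stage, animal and the step from arm to whole body cannot be told apart. In such bulk RNA, more cells of a type and more RNA per cell cannot be told apart either.

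A hatchling octopus carries every organ of the body in one small animal, including brain, eyes, gills, salivary glands and the organs of digestion, circulation and excretion. An arm holds skin, suckers, muscle and the axial nerve cord, and lacks the viscera. A transcript found in a whole body and not in an arm may thus mark an organ, a stage or an individual. "High in the hatchling only" refers here to these 5 arm libraries, since no other adult organ was among the libraries analysed. Names were known for 561 coding targets in the annotation used here, and none of the eye, skin display, blood pigment or extracellular matrix words found a named target, so the label could not be checked against marker genes of those organs. No target ID matched the RefSeq gene table, and transcripts are given by their ID.

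The libraries held 3161353 to 6524632 estimated counts in the arm and 9081923 in the hatchling. Non-coding targets took 63.4% of the hatchling TPM and 39.8 to 63.5% of the arm TPM. The hatchling reads alone were cleaned of poly-G tails before mapping, and the part of this step in the differences was not tested.

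The hatchling-high transcripts together took 6.64% of the coding TPM of the hatchling and 0.0217 to 0.0293% of the coding TPM of the arm libraries. Their median hatchling level was 34.0 TPM (quartiles 18.8 and 69.5), and it ranged from 10.3 to 2411 TPM. The median over all coding transcripts with at least 10 TPM was 20.4. Few transcripts carried most of the signal. The 5 highest held 36.3% of the summed TPM of the 214, the 10 highest 49.9% and the 20 highest 62.3%. There were 40 transcripts at 100 TPM or more and 5 at 1000 TPM or more, and 12 of the 214 stood among the 100 most abundant coding transcripts of the hatchling. By comparison, the 214 were 4.26% of the coding transcripts with at least 10 TPM in the hatchling. The choice favours high hatchling levels, so these counts are a description.

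**Figure D1:**
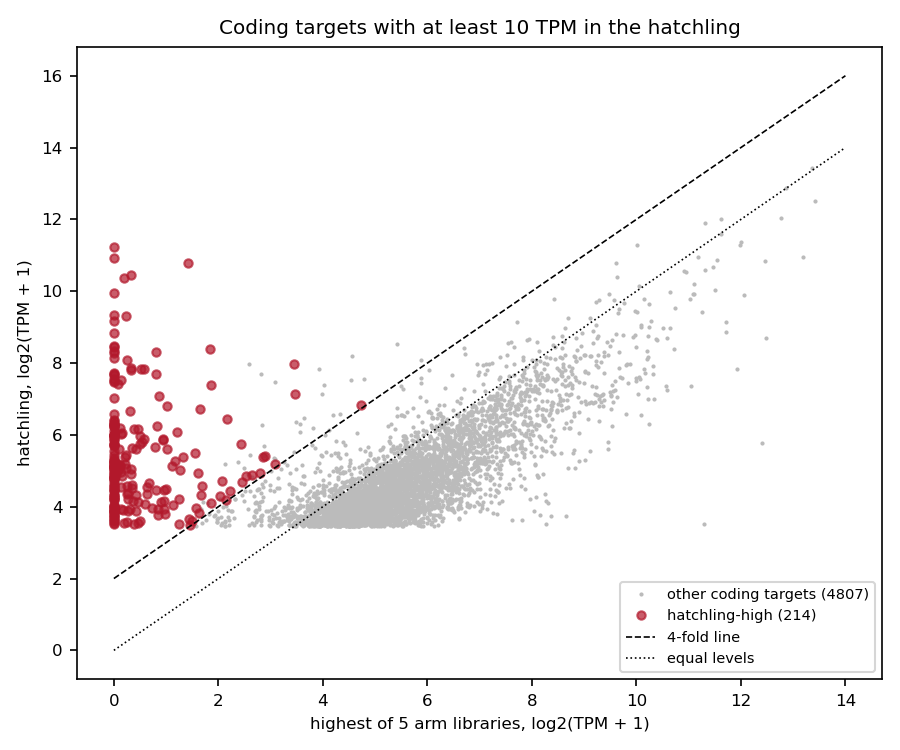
Level in the hatchling (vertical axis) against the highest of the 5 arm libraries (horizontal axis), both as log2(TPM + 1), for the 5021 coding targets with at least 10 TPM in the hatchling; each point is 1 target. The 214 hatchling-high transcripts (red) lie above the 4-fold line, and the column of red points at 0 on the horizontal axis holds the 95 that were at 0 in every arm library.

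Most of the 214 were not detected in most arm libraries at this depth. In each arm library, 127 to 146 of the 214 transcripts (59.3 to 68.2%) were at 0, against 2.95 to 3.88% of the coding transcripts with at least 10 TPM in the hatchling. The choice asked for low arm levels, so this contrast follows at least in part from it. Of the 214, 95 (44.4%) were at 0 in all 5 arm libraries. A further 79 (36.9%) were detected in an arm but under 1 TPM in every arm library. There were 25 transcripts (11.7%) with 1 TPM or more in some arm libraries and 15 (7.01%) with 1 TPM or more in all of them. The median log2 ratio of TPM + 1, hatchling to the highest arm library, was 4.84 (range 2.05 to 11.24). Over all coding transcripts with at least 10 TPM this median was -0.76, a contrast that the 4-fold limit itself makes. The added 1 TPM understates the ratio of transcripts at low level.

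Counting error left most of these ratios above the limit. For 180 of the 214 (84.1%), the lower 95% Poisson limit of the hatchling stayed at 4 times the upper limit of every arm library. The other 34 were shorter, with a median length of 504 bases, and 12 of them were under 300 bases. A count of 0 was taken to allow up to 3 counts. Against this floor, the 95 transcripts at 0 in every arm library had bounds on the hatchling-to-arm ratio with a median of 32.0-fold. These bounds use the hatchling TPM as it stands and leave out its counting error. The bound was at least 4-fold for 88 of the 95, at least 10-fold for 80 and at least 100-fold for 19. The lowest bound was 0.392, in Ocbimv22009236m, which is thus not bounded as higher in the hatchling. These intervals and floors cover counting error only.

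The most abundant of the 214, Ocbimv22005646m, stood at 2411 TPM in the hatchling (95% Poisson interval 2336 to 2487) and at 0 in all 5 arm libraries. It was at least 411-fold higher in the hatchling. Ocbimv22015359m followed at 1948 TPM (1833 to 2067), again with 0 in every arm library. Both are short transcripts, of 233 and 156 bases, whose short effective length gives each count a large TPM. Ocbimv22035011m, of 165 bases, also belongs here, at 991 TPM from 650 estimated counts in the hatchling and at 0 in the arm.

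The longer transcripts of the top 5 rested on far more reads. Ocbimv22031096m, of 2793 bases, had 74635 estimated counts in the hatchling, or 1323 TPM (1313 to 1332). It stood at 0 in the distal and medial sections, 0.146 in the proximal section, and 0.115 and 0.0382 TPM in the male and female tips. Ocbimv22022789m, of 954 bases, stood at 1392 TPM in the hatchling, 0.261 in the female tip and 0 in the other 4 arm libraries. Neither has a name or a listed expression cluster here. Traces of both in the arm were under 1 TPM in every library and the groups were far apart.

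Ocbimv22010881m was the one abundant transcript of the top 10 found in every arm library. Its level was 1759 TPM in the hatchling, 1.15 (distal), 1.35 (medial) and 1.66 TPM (proximal) along the OB-5 arm, 1.27 TPM in the male tip and 1.08 TPM in the female one. The 5 arm values lay within a narrow band, and the log2 ratio to the highest of them was 9.37.

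The rest of the top 10 were at or near 0 in the arm. Ocbimv22026969m stood at 642 TPM in the hatchling and at 0 in the arm, and it had the highest bound of the 95, at 967-fold the floor. Ocbimv22009826m stood at 632 TPM in the hatchling, 0.172 in the distal section, 0.111 in the male tip and 0 in the other arm libraries. Ocbimv22027193m, at 573 TPM, and Ocbimv22037902m, at 454 TPM, were at 0 in every arm library.

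**Figure D2:**
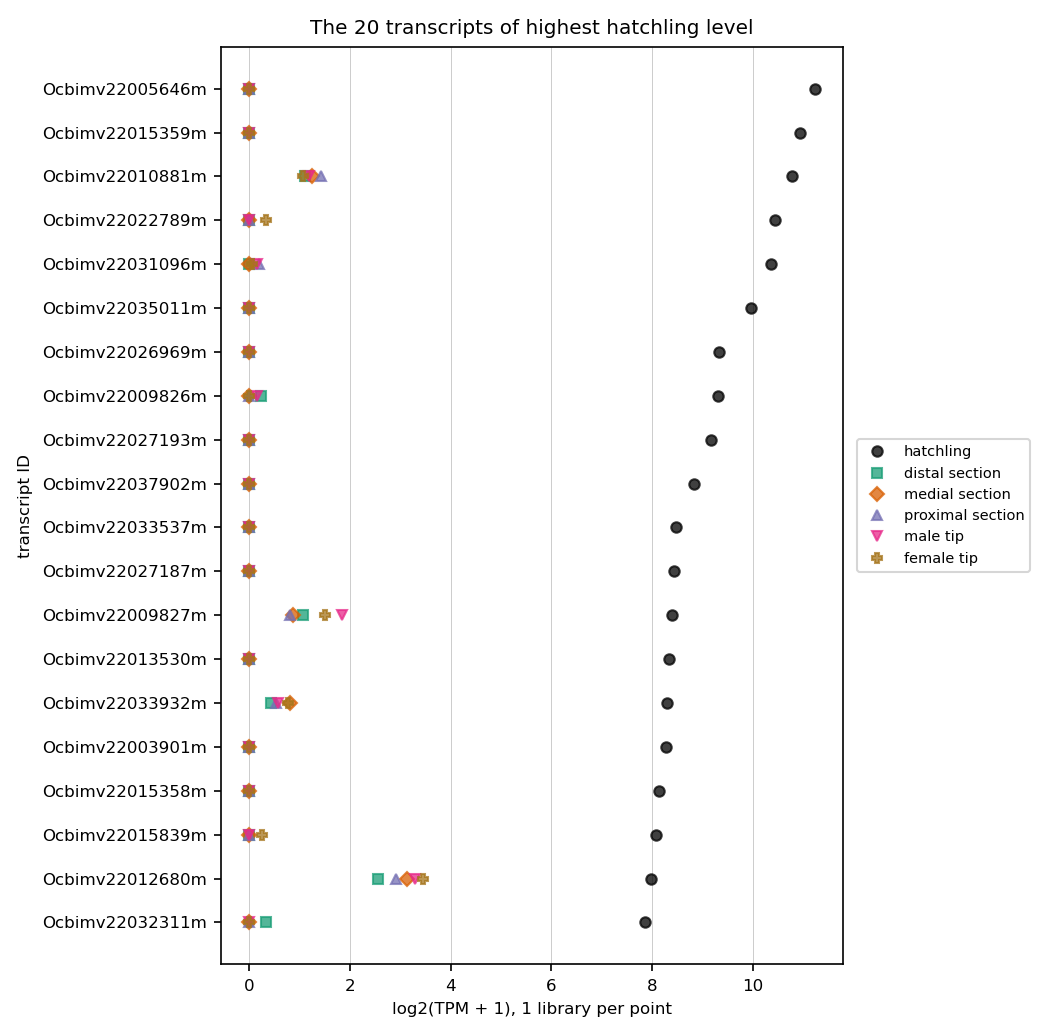
Level, as log2(TPM + 1), of the 20 hatchling-high transcripts with the highest hatchling TPM (1 row per transcript ID); each marker is 1 library. The hatchling (black) stands apart from all 5 arm libraries in every row, and Ocbimv22012680m has the highest arm values, from 4.85 TPM in the distal section to 9.92 TPM in the female tip.

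At the other end, the least certain value was that of Ocbimv22009236m, a transcript of 132 bases, which was chosen for mention after its value was seen. Its 11.7 TPM in the hatchling came from 4 estimated counts, with a 95% Poisson interval of 3.18 to 29.8 TPM, and it was at 0 in the arm. Only 2 of the 214 had fewer than 20 counts in the hatchling and 20 had fewer than 100, and the median was 532.5 counts.

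The transcripts near the limits of the choice show how sharply it was drawn. Just inside 10 TPM were Ocbimv22006784m at 10.3 TPM and Ocbimv22026545m at 10.4 TPM, and just outside were Ocbimv22021532m at 9.65 and Ocbimv22005090m at 9.58 TPM. For the 4-fold limit, Ocbimv22006784m (4.14-fold on TPM + 1) and Ocbimv22016917m (4.16-fold) were inside, while Ocbimv22005408m (3.999-fold) and Ocbimv22013531m (3.97-fold) were outside. For evenness, the ratio of the highest to the lowest arm TPM + 1 was 2.98 in Ocbimv22030838m and 2.87 in Ocbimv22018251m, both inside. It was 3.15 in Ocbimv22027847m and 3.16 in Ocbimv22003969m, both outside.

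The 15 transcripts with 1 TPM or more in all arm libraries show the lower contrasts. Their hatchling levels ran from 18.8 to 1759 TPM, and their median log2 ratio to the highest arm library was 2.31. Ocbimv22012680m stood at 252 TPM in the hatchling, 4.85 (distal), 7.76 (medial) and 6.54 TPM (proximal) in the sections, and 8.73 and 9.92 TPM in the male and female tips. Its lowest arm value was in the distal section and its highest in the female tip, and the hatchling was far above both.

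Ocbimv22004812m stood at 139 TPM in the hatchling, 9.99 (distal), 10.1 (medial) and 9.57 TPM (proximal) in the sections, and 6.85 and 3.79 TPM in the male and female tips. Both tips were below the 3 sections. Ocbimv22033722m had the closest approach of arm and hatchling among the 15, with 112 TPM in the hatchling, 10.9 (distal), 23.7 (medial) and 25.5 TPM (proximal) in the sections, and 8.27 and 8.44 TPM in the male and female tips. The sections again stood above the tips, and the 4-fold difference was not kept at the counting limits.

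**Figure D3:**
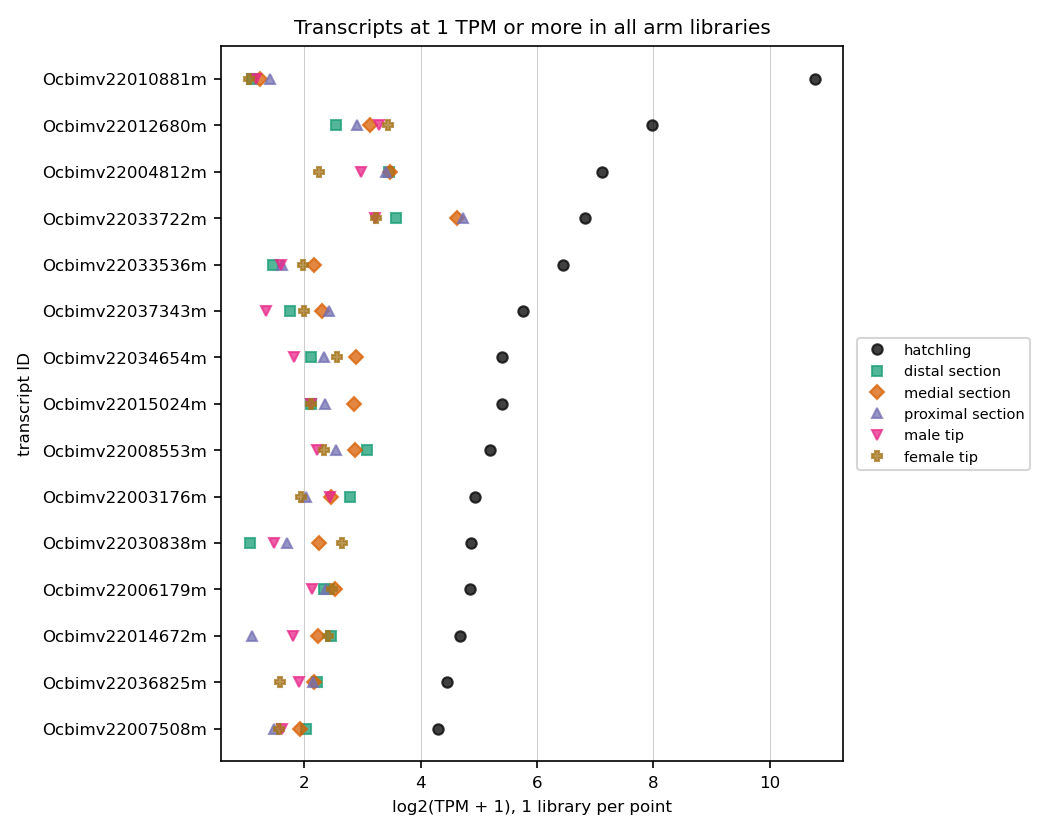
Level, as log2(TPM + 1), of the 15 hatchling-high transcripts with 1 TPM or more in every arm library (1 row per transcript ID); each marker is 1 library. The hatchling (black) is the highest in each row, and the order of the arm libraries changes from row to row.

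No arm library led these 15 throughout. The highest arm value was in the medial section for 5, the distal section for 5, the proximal section for 3 and the female tip for 2. The lowest was in the male tip for 6 and the female tip for 4. Both tips lay below all 3 sections in 5 of the 15 and above them in 1. The tips and the sections came from different animals. The tips are listed at 1.5 cm, the same distance as the distal section. By these labels they differed from the distal section in animal, and from the medial and proximal sections in animal and position. The study, however, describes the distal section as more distal than the tips, so position may differ there too. The female tip differed from the sections in sex as well. Between tips and sections, animal and position cannot be told apart, nor can sex for the female tip.

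Only 5 of the 214 had a protein name in the annotation copy used here, which named 414 coding targets. The names are best hits of predicted proteins to known ones. None of the 214 was among the 150 coding targets that the study's tables list as regulators of DNA or histone marks, and 10 of these reached 10 TPM in the hatchling. At the background share of 4.26%, a count of 0 among 10 is near background. Of the targets matched by muscle words, 2 of the 4 with at least 10 TPM in the hatchling were hatchling-high, and both were actins. The others were a Myosin-IIIa hit and a Cytoplasmic FMR1-interacting protein hit, the latter matched only through "interacting". Of the 7 targets matched by nervous words with at least 10 TPM, none was hatchling-high. The same held for 3 by developmental, 3 by translation, 2 by stress, 2 by transporter and 1 by digestion words. Notch hits were counted in both the nervous and the developmental groups. The background share of coding transcripts with at least 10 TPM was 4.26%, so counts of 0 in groups this small are near background and say nothing about the groups.

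The actins, filament proteins of muscle and of every cell's cytoskeleton, formed a group of 3 consecutive IDs that differed among themselves. Ocbimv22004268m, with a cytoplasmic actin as best hit, stood at 67.3 TPM in the hatchling, 0.455 (distal), 0.774 (medial) and 1.11 TPM (proximal) in the sections, and 0.295 and 1.32 TPM in the male and female tips. Ocbimv22004266m, with an Actin-1 hit, stood at 13.8 TPM in the hatchling, 0.343 in the male tip and 0 in the other arm libraries. The one between them, Ocbimv22004267m, was not hatchling-high, at 0.515 TPM in the hatchling and 0.279 in the male tip. Actin genes are near-identical copies, and reads that match several were divided by estimation, so the split among the 3 is uncertain.

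The other named transcripts had enzyme hits. Ocbimv22035044m, with a hit to ADAMTS12, a secreted metalloprotease that cuts matrix proteins in mammals, stood at 34.2 TPM in the hatchling, 0.0783 in the male tip and 0 in the other arm libraries. Ocbimv22004375m, with a hit to deoxyribonuclease-1, an enzyme that digests DNA, stood at 16.6 TPM in the hatchling, 0.383 in the proximal section, 0.248 in the female tip and 0 elsewhere. Ocbimv22003948m, with a hit to a beta-hexosaminidase, an enzyme that removes amino sugars from glycans, stood at 16.4 TPM in the hatchling, 0.327 (distal), 0.509 (medial) and 0.581 TPM (proximal) in the sections, and 0.859 and 0.818 TPM in the male and female tips. Its best hit was a bacterial protein with the catalytic domain of that enzyme family. In each of these the highest arm library stayed under 1 TPM.

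The study's grouping of transcripts by their profile over many tissues was then read for the 214. It placed each transcript in 1 of 13 clusters, and the hatchling and the OB-5 sections were among its samples, so cluster membership is not independent of the choice. Cluster 7, which the study names for viscera (pooled heart, kidney and hepatopancreas, the digestive gland), held 143 of the 214 (66.8%, Wilson interval 60.3 to 72.8%). This interval takes transcripts as independent and is too narrow, because consecutive IDs can be pieces of 1 gene. Cluster 7 held 7.67% of the coding transcripts with at least 10 TPM in the hatchling and 3.93% of all coding transcripts. Read the other way, 37.1% of the 385 Cluster 7 transcripts with at least 10 TPM were hatchling-high, against 1.53% of the 4636 outside Cluster 7.

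Most of Cluster 7 was not hatchling-high. The 1372 transcripts left after the choice had a median log2(TPM + 1) of 1.82 in the hatchling and of 1.07 to 1.48 in the arm libraries, which is a description since the choice had removed the highest. The 143 hatchling-high ones were 9.44% of the cluster's 1515 transcripts. Their median level was 36.9 TPM against 26.8 TPM for the 71 outside the cluster, and 60 of the 143 (42.0%) were at 0 in every arm library against 35 of the 71 (49.3%).

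Few of the 214 were listed in another cluster. Cluster 1 held 3, and Clusters 2, 3 and 6 held 1 each. The remaining 65 were in no list of the copy used here, in which the lists of Clusters 10 to 13 are missing and some others are cut short. In a block of 7624 coding transcripts for which the lists of Clusters 1 to 9 are complete, 40 were hatchling-high. Of these 40, 31 were in Cluster 7, 1 in Cluster 1 and 1 in Cluster 3. The other 7 (17.5%, Wilson interval 8.75 to 32.0%) belong by elimination to Clusters 10 to 13, against 8.07% of the coding transcripts with at least 10 TPM in the block. None of the 40 was in Clusters 2, 4, 5, 6, 8 or 9, and for each the upper 95% Wilson limit of a share of 0 was 8.76%. Cluster 4, which the study names for arms and hatchling, held 18.8% of the coding transcripts with at least 10 TPM in the block. The neuronal Cluster 5 held 26.3% of them, and Cluster 8, of suckers and skin, held 14.7%. An arm holds skin, suckers, muscle and nerve cord, and the choice asked for low arm levels. Absence from Clusters 4, 5 and 8 may thus follow from the choice and is no result about the 40.

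DNA methylation was not used in the choice and comes from another tissue. The study sorted transcripts by the methylated CpGs over their body in the supraesophageal brain into methylation patterns (MP): MP 1 methylated over body and promoter, MP 2 over the body but not the start, MP 3 only toward the 3′ end, and MP 4 unmethylated. Gene-body methylation in invertebrates is generally found on genes that are active in many cell types. In the block of 4284 coding transcripts for which all 4 lists are complete here, 26 were hatchling-high.

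Among these 26, 12 were in MP 4 (46.2%, Wilson interval 28.8 to 64.5%), 8 in MP 3 (30.8%), 5 in MP 2 (19.2%) and 1 in MP 1 (3.85%). Of all coding transcripts in the block with at least 10 TPM in the hatchling, 36.3% were in MP 4, and of all coding transcripts 46.6%. The share in the body-methylated patterns, MP 1 or MP 2, was 6 of 26 (23.1%, 11.03 to 42.05%), against 41.5% (37.6 to 45.4%) of the coding transcripts with at least 10 TPM. The intervals overlapped for each of these shares, and no difference in methylation could be shown with 26 transcripts. They are also too narrow, because some of the 26 have consecutive IDs and may not be independent.

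Within the 26, none of the 6 in MP 1 or MP 2 was at 0 in all arm libraries, whereas 2 of 8 in MP 3 and 5 of 12 in MP 4 were. The median hatchling level was 22.2 TPM in MP 2, 26.3 in MP 3 and 30.3 in MP 4. Cluster 7 held the transcript in MP 1, all 5 in MP 2, 5 of 8 in MP 3 and 10 of 12 in MP 4. The deoxyribonuclease-1 and beta-hexosaminidase hits were in MP 4, and both actins in MP 3. Beyond the block, 7 more of the 214 had a listed pattern, 6 in MP 2 and 1 in MP 1, but the lists there are incomplete.

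**Figure D4:**
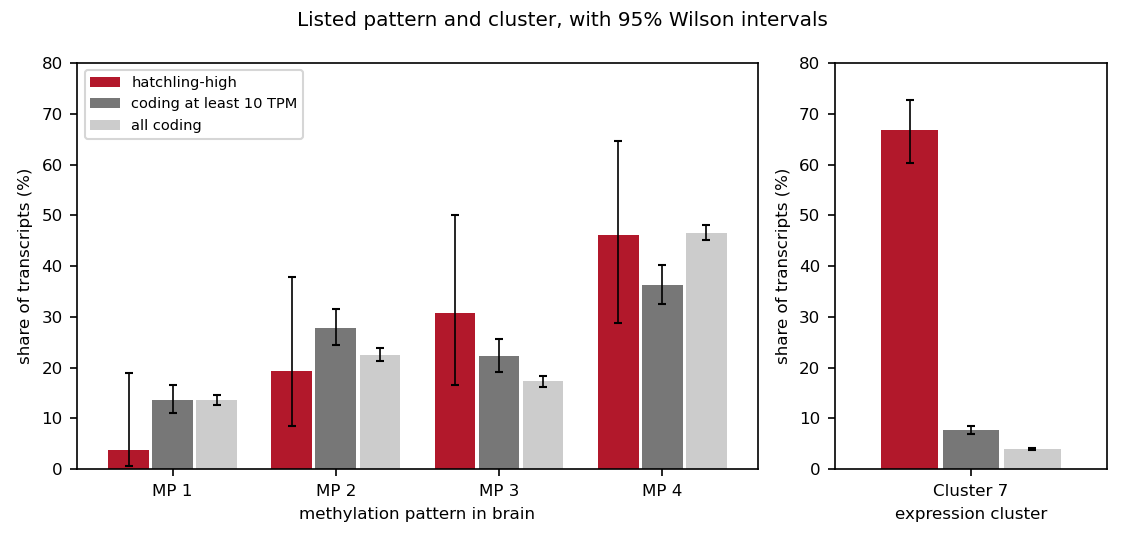
Share of transcripts, in percent, in each brain methylation pattern (left) and in Cluster 7 (right); bars are the hatchling-high transcripts, the coding transcripts with at least 10 TPM in the hatchling and all coding transcripts, and lines are 95% Wilson intervals. For MP 4 the shares are 46.2, 36.3 and 46.6%, and for Cluster 7 they are 66.8, 7.67 and 3.93%.

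In length the 214 were close to the background. Their median was 828 bases (quartiles 522 and 1401), against 879 for the coding transcripts with at least 10 TPM and 1059 for all coding transcripts. Those under 300 bases were 13.1% of the 214 and 16.9% of the coding transcripts with at least 10 TPM. Estimated counts in the hatchling were whole numbers, within 0.001, for 65.0% of the 214 and 62.3% of the coding transcripts with at least 10 TPM. A whole number is what a target that shares no reads would show. The transcripts at 0 in every arm library were shorter, with a median of 613 bases, and those with 1 TPM or more in all of them longer, with a median of 1443 bases.

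Position in the ID series was the other property that the choice had not used. IDs were numbered along the annotation, and consecutive IDs can be pieces of 1 gene. In the study's tables of epigenetic regulators, 33 of 43 pairs of consecutive IDs carried the same annotated gene. The 214 often sat next to each other. Of the 420 positions directly before or after one of them, 88 (21.0%) held another, against 0.555% of all coding transcripts. These 88 positions are 44 adjacent pairs, each counted from both sides, so no interval is given. In all, 74 of the 214 (34.6%, 28.5 to 41.2%) lay next to another, in 30 runs of 2 to 5, and this interval is too narrow because neighbours are not independent. For the far more numerous coding transcripts with at least 10 TPM, the share next to another such transcript was 42.0%.

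A minority of the neighbours that were not hatchling-high leaned the same way. Of 323 such neighbours, 38 (11.8%, Wilson interval 8.69 to 15.7%) had a TPM + 1 in the hatchling of at least 2 times that of every arm library, against 1.55% of all other coding transcripts. The 4-fold limit was passed by 4.33% of them against 0.456%. The median log2 ratio to the highest arm library was -0.37 for the neighbours and -0.79 for all coding transcripts that were not hatchling-high. The typical neighbour was thus lower in the hatchling than in its highest arm library. Of the neighbours, 78.6% were above 0 in the hatchling, against 83.5% of all coding transcripts.

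With gaps of at most 10 IDs allowed, 5 stretches held at least 4 of the 214 each and 28 in all. The longest ran from Ocbimv22011307m to Ocbimv22011320m, and 7 of its 14 IDs were hatchling-high. They stood at 11.03 to 51.42 TPM in the hatchling and at 0 in every arm library, and none was in Cluster 7. Only 2 of the 7 had whole counts, so most shared reads with another target. The other 7 IDs were low in the hatchling, at 0 to 7.91 TPM.

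Ocbimv22021676m to Ocbimv22021684m held 7 of 9 IDs, including the longest unbroken run, of 5. These 7 stood at 30.5 to 77.8 TPM in the hatchling and at most 0.106 TPM in any arm library, and all 7 were in Cluster 7. Ocbimv22021678m was the highest at 77.8 TPM, and Ocbimv22021680m, of 3113 bases, had 3319 counts and 53.1 TPM. The 2 IDs inside the stretch that were not hatchling-high stood at 0.317 and 0 TPM in the hatchling. Levels within the run of 5 differed by 2.55-fold.

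Ocbimv22027187m to Ocbimv22027193m was the stretch with the widest spread. Its 5 hatchling-high transcripts ran from 19.2 TPM to the 573 TPM of Ocbimv22027193m in the hatchling, with at most 0.213 TPM in any arm library. Between them lay Ocbimv22027191m and Ocbimv22027192m, with 8.80 and 12.6 TPM in the hatchling and 33.3 and 28.4 TPM in the highest arm library. Both were higher in that arm library than in the hatchling, the opposite of their neighbours.

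In Ocbimv22032443m to Ocbimv22032448m, 5 of 6 were hatchling-high at 26.1 to 204 TPM, all with whole counts, all at 0 in every arm library and all in Cluster 7. In Ocbimv22014046m to Ocbimv22014049m, all 4 were, at 28.7, 29.8, 19.4 and 18.2 TPM in the hatchling and at most 0.194 TPM in any arm library. Their levels in the hatchling differed by 1.64-fold although their lengths ran from 483 to 8820 bases, and Ocbimv22014048m is the longest of the 214.

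**Figure D5:**
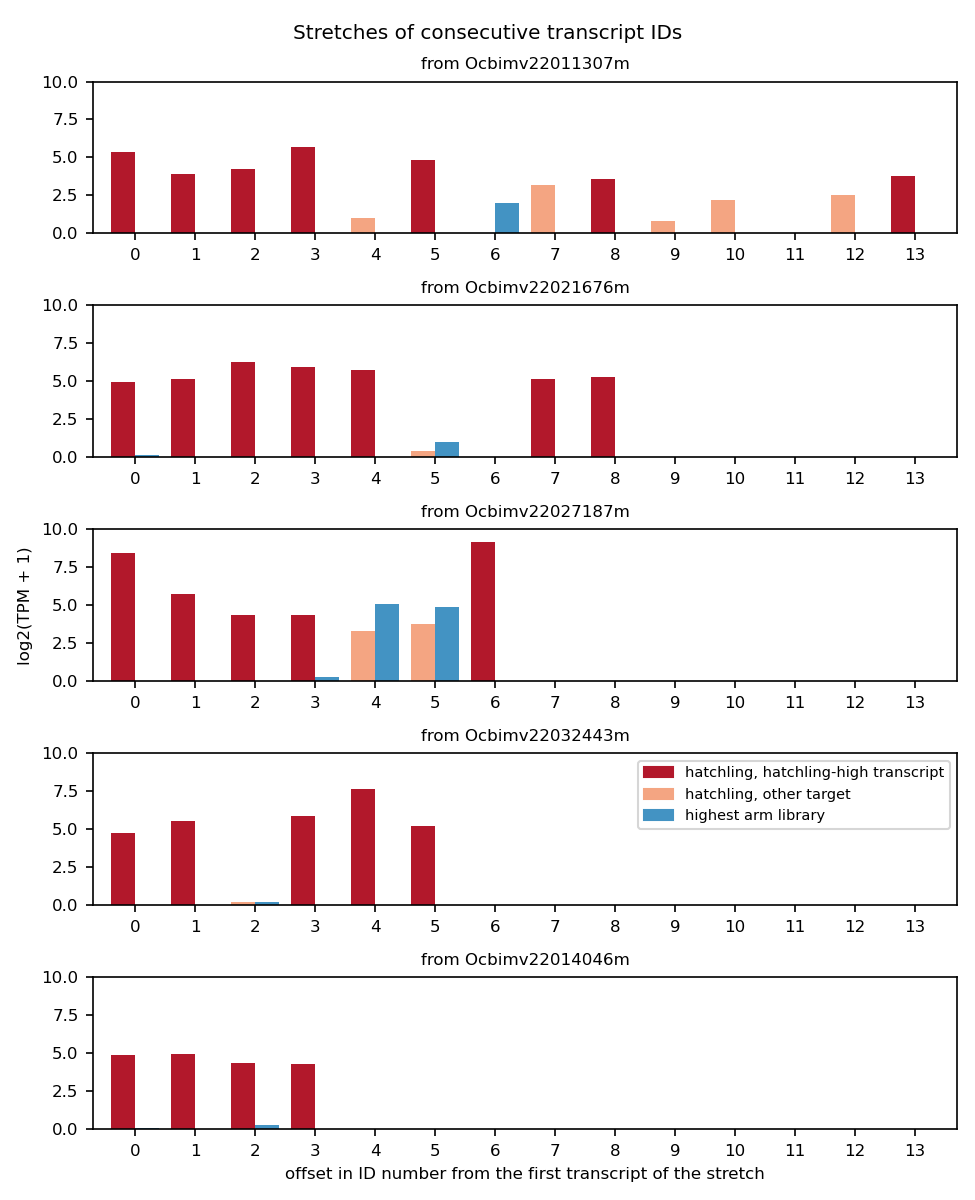
Level, as log2(TPM + 1), of each coding target in the 5 stretches of neighbouring IDs, plotted by its offset in ID number from the first; red bars are hatchling-high transcripts and light bars other targets in the hatchling, and blue bars are the highest of the 5 arm libraries. In the stretch from Ocbimv22027187m, the blue bars exceed the hatchling at offsets 4 and 5, where the arm reached 33.3 and 28.4 TPM.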

How the data were processed

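RNA from 6 libraries (RiboZero, paired reads of 150 bases, 250 ng of RNA) was trimmed by the authors with Trimmomatic 0.36, checked with FastQC 0.11.5 and quantified with kallisto (version not given in the sources used here) against the Octopus bimaculoides reference transcripts. Only the hatchling reads had poly-G tails removed. The deposited tables give estimated counts per target (reads matching several targets divided by estimation) and the authors' TPM, scaled by effective length over all coding and non-coding targets. Lengths are in bases.

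The members and lists were chosen with earlier results of these data known. The choice was applied to the deposited TPM in Python 3.11.15 (pandas 2.3.3, scipy 1.17.1) with a pseudocount of 1 TPM. With 1 library per condition no test was run. Wilson (statsmodels 0.14.6) and exact Poisson intervals at 95% and a floor of 3 counts were used. All Wilson intervals take transcripts as independent, which neighbouring IDs may not be. Named transcripts were the 10 highest in the hatchling, the 10 with the highest ratio, those nearest each limit, the longest runs and the annotated ones; others are marked in the text. The word "actin" also matched "interacting". Alternatives changed the limits, the pseudocount and the scaling (TMM, edgeR 4.0.16 in R 4.3.3, on counts rounded to whole numbers), or left out a library. The choice was also run on simulated data. That run checked the working of the code only, and it is no evidence for the hatchling-high transcripts in these libraries. Cluster and methylation lists are a shortened copy, so shares were taken in blocks where they are complete. No sequence or genome was used here.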

Additional observations from a re-analysis of the deposited data

How the results depend on the processing

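The number of hatchling-high transcripts depended on scaling. It was 322 with TMM scaling, 361 with TPM recomputed without non-coding targets and 338 without the 10 most abundant targets of each library, against 214; 214, 196 and 204 of the original transcripts were among them, and the cause was not tested. TMM scaling moved the median log2 ratio of all coding transcripts from -0.78 to -0.38. Under every scaling run, all 214 kept at least 4-fold. In the other 16 alternatives the number ran from 153 (at least 20 TPM) to 302 (at least 5 TPM). With a pseudocount of 0.1 it was 156, with 149 of the original transcripts among them. It was 219 to 230 when 1 arm library was left out. Over all 19 alternatives the share in MP 4 ran from 39.1 to 50% and the share next to another hatchling-high transcript from 31.4 to 38.9%, both inside the intervals given. The share in Cluster 7 ran from 53.2 to 70.6% and left its interval in 3 of the 19. It was 57.9% at 5 TPM or more, 53.2% without non-coding targets and 56.2% without the 10 most abundant targets. A joint change of pseudocount to 0.1 with no evenness limit gave 267, with all 214 of the original transcripts among them. The original transcripts lost with a pseudocount of 0.1 thus failed only the evenness limit. This joint change and the counting limits (180) were added after seeing the data. Each of the 42 named transcripts stayed at a log2 ratio of at least 2 under the 4 scalings and pseudocounts tried. All 4 changes raised the median log2 ratio of the 214, from 4.84 to values between 5.35 and 7.24. Keeping the 4-fold limit is thus no check of the choice. The ratio left its counting limits for 29 of the 42 with a pseudocount of 0.1 and 39 with TMM. It did so for 33 without non-coding targets and 33 without the 10 most abundant targets. Depth limits short transcripts most. No paired analysis was possible because each condition is 1 library and the replicate numbers pair nothing.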

Other observations

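A further 35 coding transcripts had at least 10 TPM and 4-fold over each arm library but differed too much among the arm libraries to be hatchling-high, and 19 of them were in Cluster 7. The highest arm value was in the medial section for 15, the female tip for 8, the proximal section for 7, the male tip for 4 and the distal section for 1. In the group Ocbimv22020499m, Ocbimv22020503m, Ocbimv22020505m and Ocbimv22020506m, chosen after their values were seen, the hatchling stood at 182, 141, 168 and 293 TPM. The female tip stood at 22.4, 14.8, 15.1 and 22.2 TPM, and the male tip at 0 for all 4. In the male OB-5, the proximal section stood at 11.9, 11.1, 11.2 and 22.5 TPM. The medial section stood at 7.99, 3.24, 6.56 and 11.9 TPM, and the distal section at 0.470, 0.0154, 1.22 and 1.16 TPM. Levels above 0 in the arm were thus not limited to the female. Both tips are listed at 1.5 cm and came from a male and a female, so animal and sex cannot be told apart between them. Between the tips and the sections, position and animal cannot be told apart, nor can sex for the female tip.

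Another 140 coding transcripts missed only the limit of 10 TPM in the hatchling. Among 1771 non-coding targets, 5 passed the same limits as the coding ones, and 3 of these 5 had fewer than 20 counts in the hatchling.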
